A study of Mus musculus with 1 sample.

Results

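Cells of mouse bone marrow that carried transcripts of both Flt3 and Csf1r, together with Irf8, were described in 1 single-cell RNA library. They were chosen by their raw counts of unique molecular identifiers (UMIs, each standing for 1 captured RNA molecule): at least 1 UMI each of Flt3, Csf1r and Irf8, and 0 UMIs each of H2-Aa, Cox6a2, Upb1, Siglech and Dntt. The last 5 genes are known from mature dendritic cells, plasmacytoid dendritic cells and lymphoid progenitors. Of 7645 cells kept by the cell filter of the study, 323 met this rule, which was 4.23% (exact Clopper-Pearson 95% interval 3.79 to 4.70). They are called Flt3+Csf1r+ cells here. The label of the class, monocyte-dendritic progenitor, is a name from the field, whereas the rule that chose these cells rests on RNA counts.

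The library came from lineage-negative c-Kit+ (LK) cells of femora and tibiae of C57BL/6 mice, the fraction of marrow that holds stem cells and progenitors. The mice were of the control genotype Brd9fl/fl, in which both Brd9 alleles carry loxP sites and no Cre recombinase is present. The labels give CD45.2(+) donor cells in CD45.1(+) CD45.2(-) recipients, whereas the text of the series describes primary mice, and which of these holds for this library could not be settled. All mice received polyinosinic-polycytidylic acid (pIpC), a double-stranded RNA mimic that induces interferon, at 20 mg/kg every other day for 3 doses, and the marrow was taken 8 weeks later. The first dose came 4 weeks after the transplant by the labels, or at 4 weeks of age by the text of the series. The number of mice in the pool is not given in the sources used here. The Brd9-deleted counterpart was not analysed here. With 1 library, groups of cells are set side by side without a test or a p-value. All intervals are 95% intervals and cover counting error only.

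Progenitors with both receptors stand, as background, at a branch of myeloid development from which monocytes and dendritic cells arise. FLT3 is the receptor tyrosine kinase that answers FLT3 ligand and drives dendritic cell development. CSF1R is the receptor for CSF1 and IL-34 and sustains monocytes and macrophages. The transcription factor IRF8 is needed for both lineages and holds back neutrophil genes, and the fractalkine receptor CX3CR1 was used to define these progenitors in mice.

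Sequencing depth differed little between the groups. The Flt3+Csf1r+ cells had a median of 23409 UMIs per cell, from 2841 to 48326, and a median of 4650 detected genes, against 18696 UMIs over all cells kept. Together they held 7857833 UMIs. Csf1r-positive cells without a Flt3 UMI, the contrast of the rule, numbered 1181 with a median of 22116 UMIs. Flt3-positive cells without a Csf1r UMI, limited to cells with Irf8 and without the 5 excluded genes, numbered 159 with a median of 20533 UMIs. Cells with all 3 required genes and at least 1 UMI of an excluded gene numbered 292, with a median of 20316 UMIs. A doublet caller marked 22 of the 323 Flt3+Csf1r+ cells (6.81%, interval 4.32 to 10.1), 4.83% of the Csf1r-positive Flt3-zero cells and 3.51% of all cells kept.

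The receptor transcripts that chose the cells were sparse. Flt3 was at exactly 1 UMI in 178 of the 323 cells, at 2 UMIs in 72 and at 3 or more in 73, with a highest value of 9. Csf1r was at 1 UMI in 126 cells, at 2 in 82 and at 3 or more in 115, with a highest value of 10. The plot of receptor UMIs shows that 63 cells rested on 1 UMI of each. Irf8 was at 3 or more UMIs in 305 of the 323 cells, with a median of 14. When every cell was thinned at random to 5000 UMIs, 43 of 322 cells still had all 3 transcripts (13.4%, interval 9.84 to 17.6), 132 had neither receptor (41.0%), 84 had Csf1r without Flt3 and 61 had Flt3 without Csf1r. Membership thus moved with depth. In erythroid cells, taken as cells with at least 3 UMIs each of Klf1 and Gata1 and expected to lack these transcripts, Flt3 was seen in 2.48%, Csf1r in 3.84% and Irf8 in 11.8% of 808 cells at a median of 35811 UMIs. Only 3 of these 808 cells had all 3, and 1 of them was in the class.

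**Figure D1:**
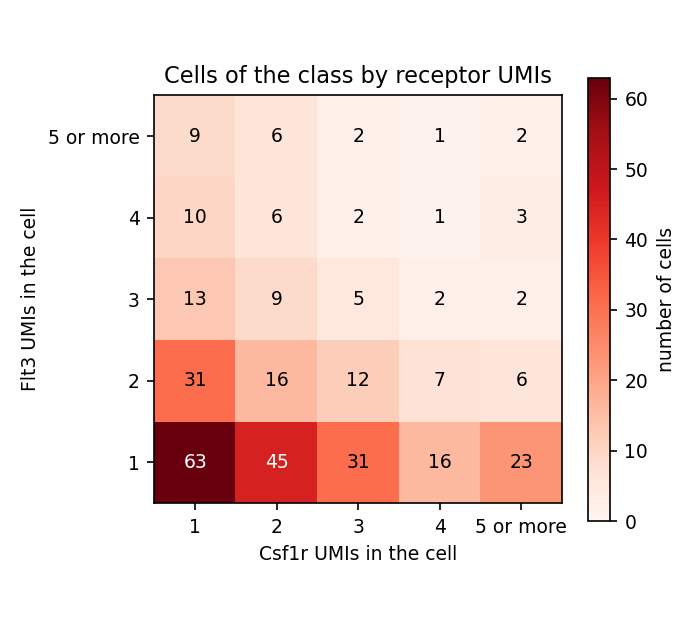
Number of Flt3+Csf1r+ cells for each combination of Flt3 UMIs (vertical axis) and Csf1r UMIs (horizontal axis), with the last step holding 5 or more. The fullest field, 63 of the 323 cells, has 1 UMI of each receptor.

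Cells on either side of the rule's thresholds had these levels. The 63 cells with 1 UMI of each receptor had Elane at 3482 CPM (UMIs of the gene per 1000000 UMIs of the group), Ly6c2 at 754 CPM and Sox4 at 219 CPM. Just outside stood 100 cells with all 3 required genes and exactly 1 UMI of the 5 excluded genes, in which Elane was at 977 CPM, Ly6c2 at 505 CPM, Sox4 at 354 CPM and the invariant chain gene Cd74 at 5.52 CPM. The 192 cells with 2 or more UMIs of excluded genes had Cd74 at 529.99 CPM. Among cells without excluded genes, 10 had both receptors but no Irf8, and their Ly6c2 stood at 109.8 CPM. These values are given as a description of where the rule was drawn.

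Cx3cr1 was the only marker of the name that the rule did not use. It stood at 46.5 CPM (interval 41.8 to 51.5, from 365 UMIs) in Flt3+Csf1r+ cells, at 28.5 CPM (interval 26.5 to 30.6) in Csf1r-positive Flt3-zero cells and at 14.4 CPM (interval 10.6 to 19.0) in Flt3-positive Csf1r-zero cells. Its level was thus higher in the cells with both receptors than in cells with either alone, by 1.63 times (interval 1.43 to 1.85) and by 3.23 times (interval 2.39 to 4.45). A Cx3cr1 UMI was seen in 57.0% of the Flt3+Csf1r+ cells (interval 51.4 to 62.4) and in 3.96% of the deeper erythroid cells. After thinning to 5000 UMIs the shares were 18.9% (interval 14.8 to 23.7) in Flt3+Csf1r+ cells, 14.2% (interval 12.3 to 16.4) in Csf1r-positive Flt3-zero cells, 6.29% (interval 3.06 to 11.3) in Flt3-positive Csf1r-zero cells and 0.248% in erythroid cells, so that the first and second of these overlapped in their intervals. The label and this 1 marker did not go against each other. Cx3cr1 was higher still, at 62.4 CPM (interval 56.4 to 69.0), in the cells with an excluded gene. The 139 Flt3+Csf1r+ cells without a Cx3cr1 UMI held Elane at 2420 CPM.

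Against Csf1r-positive cells without Flt3, the Flt3+Csf1r+ cells held more RNA of stem and multipotent progenitor genes and less of the granule protein and mature monocyte genes. Of 10780 genes with at least 50 UMIs in both groups together, 119 were at least 2-fold higher (1.10%) and 153 at least 2-fold lower (1.42%) in Flt3+Csf1r+ cells. At 1.5-fold, the counts were 539 (5.0%) and 379 (3.52%). These counts describe the cells of this library and moved with the minimum number of UMIs: with at least 200 UMIs they were 21 and 70. The contrast also held cells without Irf8 and cells with excluded genes. Against the 838 contrast cells that met the same conditions on these genes, 191 of 10372 genes were at least 2-fold higher (1.84%) and 72 at least 2-fold lower (0.694%), and at 1.5-fold 703 (6.78%) and 236 (2.28%).

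Among the 23 of 26 stem and multipotent progenitor genes with enough UMIs, 3 were at least 2-fold higher and 9 at least 1.5-fold higher, none was 1.5-fold lower, and the median ratio was 1.28 against 1.04 over all genes tested. The summed level of the list was 1919 CPM in Flt3+Csf1r+ cells and 1299 CPM in the contrast. Against the 838 cells matched on Irf8 and the excluded genes, 10 of 22 genes of the list were at least 2-fold higher and the median ratio was 1.76. Sox4, a transcription factor of stem cells and early lymphoid cells, stood at 278 CPM (interval 266 to 289) against 102 CPM (interval 98.4 to 106), and was detected in 88.2% against 63.5% of the cells. Cd34, the sialomucin that marks early progenitors, stood at 222 CPM against 121 CPM, a ratio of 1.83 (interval 1.72 to 1.94). Cd27, a receptor of the tumour necrosis factor family that marks multipotent progenitors, stood at 53.8 CPM against 20.0 CPM, a ratio of 2.69 (interval 2.37 to 3.06). Egfl7, Hoxa9 and Erg were also higher, at ratios of 2.27, 1.95 and 1.92. Kit, the receptor for stem cell factor on which the cells were sorted, stood at 61.6 CPM against 45.9 CPM. The genes that define the most primitive stem cells were near the limit of detection: Procr had 16 UMIs and Mecom 22 UMIs over all Flt3+Csf1r+ cells, and Hlf stood at 7.25 CPM.

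The lymphoid-primed list gave 9 of 20 genes with enough UMIs, of which 1 was at least 2-fold and 4 at least 1.5-fold higher, with a median ratio of 1.39. The chromatin organiser Satb1 stood at 47.7 CPM against 22.3 CPM, the transcription factor Mef2c at 228 CPM against 143.9 CPM, and Notch1 at 42.0 CPM against 27.9 CPM. Genes of committed lymphocytes were not among them: Rag1, Ebf1 and Pax5 had 0 UMIs in Flt3+Csf1r+ cells, which allows up to 0.382 CPM, and Il7r had 5 UMIs. The rule required Dntt at 0, so low lymphoid genes follow in part from the choice of cells. These zeros were also not particular to the class. Rag1, Ebf1 and Pax5 had 0 UMIs in Flt3-positive Csf1r-zero cells and in cells with an excluded gene, as had Rag1 in Csf1r-positive Flt3-zero cells.

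Granule genes were lower. Of 21 of 24 genes of the granulocyte-monocyte progenitor and neutrophil granule list with enough UMIs, 7 were at least 2-fold and 12 at least 1.5-fold lower, 1 was at least 1.5-fold higher, and the median ratio was 0.64. Elane, neutrophil elastase, stood at 1836 CPM (interval 1806 to 1866) against 4459 CPM (interval 4434 to 4484), with a median of 17 UMIs per cell against 75. The membrane protein gene Ms4a3 stood at 302 CPM against 639.5 CPM, Prtn3, proteinase 3, at 3536 CPM against 5492 CPM, and Mpo, myeloperoxidase, at 3435 CPM against 4192 CPM. The ratios were 0.412 for Elane, 0.473 for Ms4a3, 0.644 for Prtn3 and 0.819 for Mpo. The gene that was at least 1.5-fold higher, S100a9, had 95.5% of its 157 UMIs in 3 cells.

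Genes of the monocyte list were split. Of 32 of 33 genes with enough UMIs, 5 were at least 2-fold lower and 11 at least 1.5-fold lower, 2 were at least 1.5-fold higher, and the median ratio was 0.89. Ly6c2, the Ly6C surface antigen of classical monocytes, stood at 732 CPM (interval 713 to 751) against 1343 CPM, and lysozyme, Lyz2, at 379.5 CPM against 789 CPM. The Fc receptor gene Fcgr3 stood at 47.3 CPM against 105.8 CPM, galectin-3, Lgals3, at 101.05 CPM against 204.5 CPM, and Cybb, a subunit of the phagocyte oxidase, at 54.1 CPM against 96.7 CPM. In contrast, the chemokine receptor gene Ccr2 stood at 155 CPM against 138 CPM, the adaptor and antigen genes Ly86 and Ms4a6c were at ratios of 1.03 and 0.962, and the chemokine gene Ccl9 was higher, at 135.8 CPM against 89.7 CPM.

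Transcription factors of the monocyte and dendritic branches followed no common direction, with 3 of 36 genes at least 1.5-fold higher, 5 at least 1.5-fold lower and a median ratio of 1.15. Spi1, which encodes PU.1, was at 249.7 CPM against 246 CPM, and Zeb2 at 315 CPM against 273 CPM. The factors of monocyte maturation Klf4 and Cebpb were both at a ratio of 0.618, with Klf4 at 70.1 CPM against 113 CPM and Cebpb at 105.6 CPM against 171 CPM. Tcf4, the factor of plasmacytoid dendritic cells, stood at 93.0 CPM against 54.6 CPM, and Runx2, known from the same cells, at 51.9 CPM against 26.9 CPM. Of the receptors for growth factors, the GM-CSF receptor gene Csf2ra was at 55.2 CPM against 93.3 CPM and the interferon gamma receptor gene Ifngr1 at 104.6 CPM against 159.7 CPM, while Il6st, the shared signalling chain of the IL-6 family, was higher at 77.9 CPM against 52.2 CPM. The summed level of the receptor list was at a ratio of 0.989, with an interval that held 1 (0.964 to 1.02).

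By rank, the genes furthest above the contrast were Aff3 at 3.83 times (21.4 CPM against 5.59 CPM), the actin-regulating Marcksl1 at 3.07 times, Sox4, Cd27, Hoxa7 at 2.51 times, the anti-apoptotic Bcl2 at 2.31 times (207 CPM against 89.4 CPM), Egfl7, the interferon-inducible Ifitm1 at 2.26 times, the chemokine gene Ccl4 at 2.22 times and Satb1. In these genes the 3 cells with the most UMIs held between 3.26% and 13.1% of the UMIs, so the levels did not rest on a few cells. Cnn3, Gpr171, Galnt6 and Tespa1 followed, at ratios from 1.94 to 2.12. At the lower end, apart from Elane, stood the C-type lectin gene Clec4a2 at 7.89 CPM against 41.7 CPM, Gda at 16.3 CPM against 48.3 CPM, lipocalin-2, Lcn2, at 7.64 CPM against 22.6 CPM, and Mcemp1, Dmkn, Mgst2 and the actin-severing factor Dstn at ratios from 0.365 to 0.416.

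Several ranked genes belonged to other lineages and rested on single cells. Igkc and Ighg2c, immunoglobulin genes at ratios of 0.0396 and 0.0194, had 96.7% of their UMIs in the contrast in 1 cell, and without the 3 highest cells of each group the ratios were 0.931 and 1.15. Prg2, an eosinophil granule gene, had 84.0% of the contrast's UMIs in 3 cells. The basophil protease genes Mcpt8 and Prss34 were higher in Flt3+Csf1r+ cells, at 123 CPM against 63.2 CPM and at 126 CPM against 85.1 CPM, but 9 of the 323 cells, each with at least 10 UMIs of the pair, held 89.8% of their UMIs. Without doublet calls, both ratios fell below 1, to 0.816 for Mcpt8 and 0.360 for Prss34. Erythroid genes were lower in all 13 listed cases, with a median ratio of 0.46 and haemoglobin genes Hbb-bs, Hba-a1 and Hbb-bt at 0.299, 0.322 and 0.367, and the Rhesus gene Rhd at 0.429. With Irf8 and the 5 excluded genes required of the contrast as well, the erythroid median was 0.86 and 4 of the 13 genes were above 1. Cells with at least 3 UMIs of Klf1 and Gata1 together made up 11 of the 323 Flt3+Csf1r+ cells, 5 of them doublet calls, and 57 of the 1181 contrast cells, 22 of them doublet calls. The part of free RNA and of joined cells in these values was not tested. Beyond these, 5 of 9 T and NK cell genes had 0 UMIs in Flt3+Csf1r+ cells, Nkg7 apart, which stood at 159 CPM. Megakaryocyte genes summed to 73.3 CPM against 108 CPM in the contrast.

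**Figure D2:**
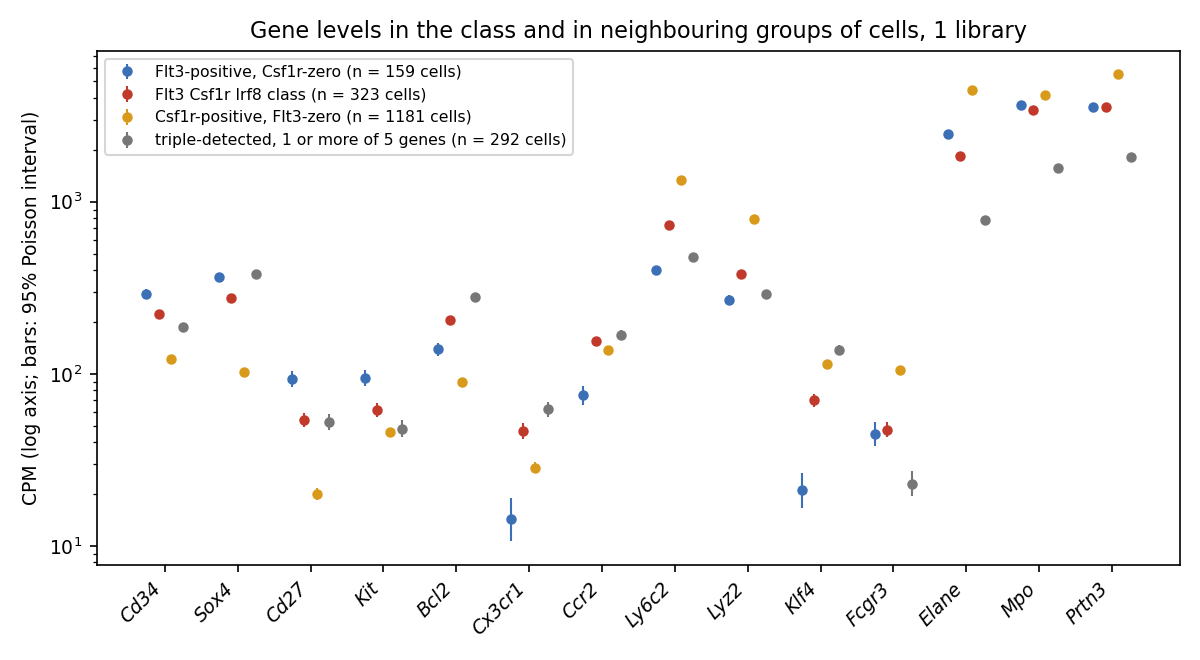
Levels of 14 genes in CPM (log axis, bars give 95% Poisson intervals) in Flt3+Csf1r+ cells and 3 neighbouring groups of cells of the same library. For Sox4, Cd34, Cd27, Kit, Ly6c2, Lyz2 and Klf4 the Flt3+Csf1r+ cells lie between the Flt3-positive Csf1r-zero and the Csf1r-positive Flt3-zero cells. Cx3cr1 and Ccr2 lie above both. Elane, Mpo and Prtn3 lie below both, Prtn3 only slightly below the Flt3-positive Csf1r-zero cells.

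As a view of regulatory sequence in the granule and monocyte lists, the promoters of Elane, Mpo and Ly6c2 are given from RefSeq on build GRCm38.p6. Each runs from 250 bases before to 50 bases after the start site on the strand of the gene. They were chosen because each holds the PU.1 box GAGGAAGT (ACTTCCTC on the other strand), which is in capitals. Elane lies at chr10:79886062-79886361 on the plus strand, with the box 85 bases before the start. Mpo lies at chr11:87793534-87793833 on the plus strand, with the box 224 bases before the start. Ly6c2 lies at chr15:75111922-75112221 on the minus strand and holds the box 2 times.
Elane: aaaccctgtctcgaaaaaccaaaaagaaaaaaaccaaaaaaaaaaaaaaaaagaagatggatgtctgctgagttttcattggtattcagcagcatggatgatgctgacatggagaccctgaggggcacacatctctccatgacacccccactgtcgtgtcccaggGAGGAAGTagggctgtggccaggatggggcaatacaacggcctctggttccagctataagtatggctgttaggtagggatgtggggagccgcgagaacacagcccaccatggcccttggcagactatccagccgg
Mpo: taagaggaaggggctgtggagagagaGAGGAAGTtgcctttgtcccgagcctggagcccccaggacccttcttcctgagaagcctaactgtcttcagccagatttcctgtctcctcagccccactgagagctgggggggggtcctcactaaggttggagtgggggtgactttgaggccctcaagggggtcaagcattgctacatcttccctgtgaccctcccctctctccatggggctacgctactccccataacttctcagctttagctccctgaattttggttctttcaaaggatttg
Ly6c2: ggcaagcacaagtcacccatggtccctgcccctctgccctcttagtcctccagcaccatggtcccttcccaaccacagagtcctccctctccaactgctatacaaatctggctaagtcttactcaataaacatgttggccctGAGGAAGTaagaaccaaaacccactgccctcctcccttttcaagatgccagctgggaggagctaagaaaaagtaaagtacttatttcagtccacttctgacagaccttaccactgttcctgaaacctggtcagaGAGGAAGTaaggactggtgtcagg

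The box occurs, on either strand, in 887 of 27025 promoters of this table (3.28%). Of the listed granule genes with a promoter in the table, 4 of 21 held it (19.0%: Elane, Mpo, Prtn3 and S100a8), and of the monocyte genes 5 of 27 (18.5%: Ctsc, Ctss, Ly6c2, Pld4 and S100a4). None of 20 stem and multipotent progenitor genes had it in this window, and 2 of 33 monocyte and dendritic transcription factor genes did (6.06%: Cbfa2t3 and Rel). A match of letters is a description and says nothing of binding. Against the Csf1r-positive Flt3-zero cells, Elane, Ly6c2, Prtn3 and Mpo, all with the box, were at ratios of 0.412, 0.545, 0.644 and 0.819, and Ctss was at 1.20. Ratios of the other genes with the box (S100a8, Ctsc, Pld4, S100a4, Cbfa2t3 and Rel) are not set beside these. A link between the box and the levels was not tested.

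Against Flt3-positive cells without Csf1r, some lists turned in direction, among them the stem, monocyte and lysosomal genes, and others did not. The granule list stayed lower (summed ratio 0.879), and the lymphoid-primed and plasmacytoid dendritic lists stayed higher (1.19 and 1.16). Of 9289 genes tested, 116 were at least 2-fold higher (1.25%) and 81 at least 2-fold lower (0.872%) in Flt3+Csf1r+ cells. At 1.5-fold, the counts were 411 (4.42%) and 373 (4.02%). In the monocyte list 14 of 31 genes were at least 2-fold higher and 30 were above a ratio of 1, with a median ratio of 1.83 against 0.997 over all genes. S100a4 stood at 106.7 CPM against 27.9 CPM, Klf4 at 70.1 CPM against 21.1 CPM (a ratio of 3.32, interval 2.59 to 4.31) and Lgals3 at 101.05 CPM against 30.5 CPM. Ccr2, which draws monocytes out of the marrow, stood at 155 CPM against 74.8 CPM, and F13a1, a coagulation factor of monocytes, at 568 CPM against 246 CPM. Ly6c2 was higher by 1.83 times (interval 1.73 to 1.95). Lysosomal genes went the same way, with 5 of 19 at least 2-fold higher: Ctsh, a cathepsin, stood at 109 CPM against 47.8 CPM, Ifi30, a thiol reductase of antigen processing, at 94.4 CPM against 32.9 CPM and Psap, the precursor of the saposins, at 382 CPM against 180.4 CPM.

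Stem and multipotent progenitor genes were lower than in the Flt3-positive Csf1r-zero cells. Of 21 such genes with enough UMIs, 6 were at least 2-fold and 11 at least 1.5-fold lower, 19 were below a ratio of 1, and the median ratio was 0.66. The genes furthest below were Myct1 at 5.98 CPM against 25.5 CPM, Ctla2a at 39.2 CPM against 161.9 CPM, the stem cell factor gene Hlf at 7.25 CPM against 27.3 CPM, Spns2 at 9.04 CPM against 28.7 CPM, Rgs1 at 19.3 CPM against 57.2 CPM and the angiopoietin gene Angpt1 at 20.4 CPM against 57.2 CPM. Kit stood at 61.6 CPM against 94.8 CPM. Cd93 was among the exceptions, at 165 CPM against 117 CPM. Of 19 granule genes with enough UMIs, 2 were at least 2-fold and 3 at least 1.5-fold higher, and 3 were at least 1.5-fold lower. Their median ratio was 0.943 against 0.997 over all genes, and their summed ratio was 0.879 (interval 0.870 to 0.888). Prtn3 was at a ratio of 0.991 (interval 0.970 to 1.01), Mpo at 0.943, and Elane at 0.740 (1836 CPM against 2483 CPM). The haemoglobin genes and Pf4 were also lower, but 3 cells held 77.5% to 94.1% of their UMIs in the smaller group.

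Further up in rank stood Ahnak at 64.4 CPM against 15.5 CPM, Slfn2 at 27.9 CPM against 7.92 CPM, the guidance receptor gene Nrp1 at 40.3 CPM against 12.0 CPM, and Gpr183, a receptor for oxysterols that positions dendritic cells, at 26.1 CPM against 7.92 CPM. With every cell thinned before the rule, Nrp1 went the other way, at a ratio of 0.353 (interval 0.121 to 0.849). Among transcription factors, Irf5 was at 24.1 CPM against 9.39 CPM and Cebpb at 105.6 CPM against 63.4 CPM, while Tcf4 was alike in both groups at 93.0 CPM and 93.3 CPM, and Egr1 was lower at 19.7 CPM against 37.3 CPM. Il6st had the largest ratio within the list of growth factor and cytokine receptors, at 2.46 (interval 2.0 to 3.04). Prss34 and Mcpt8 again ranked high, at ratios of 11.9 and 3.13, and dropped to 0.658 and 0.491 without the 9 cells described above.

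**Figure D3:**
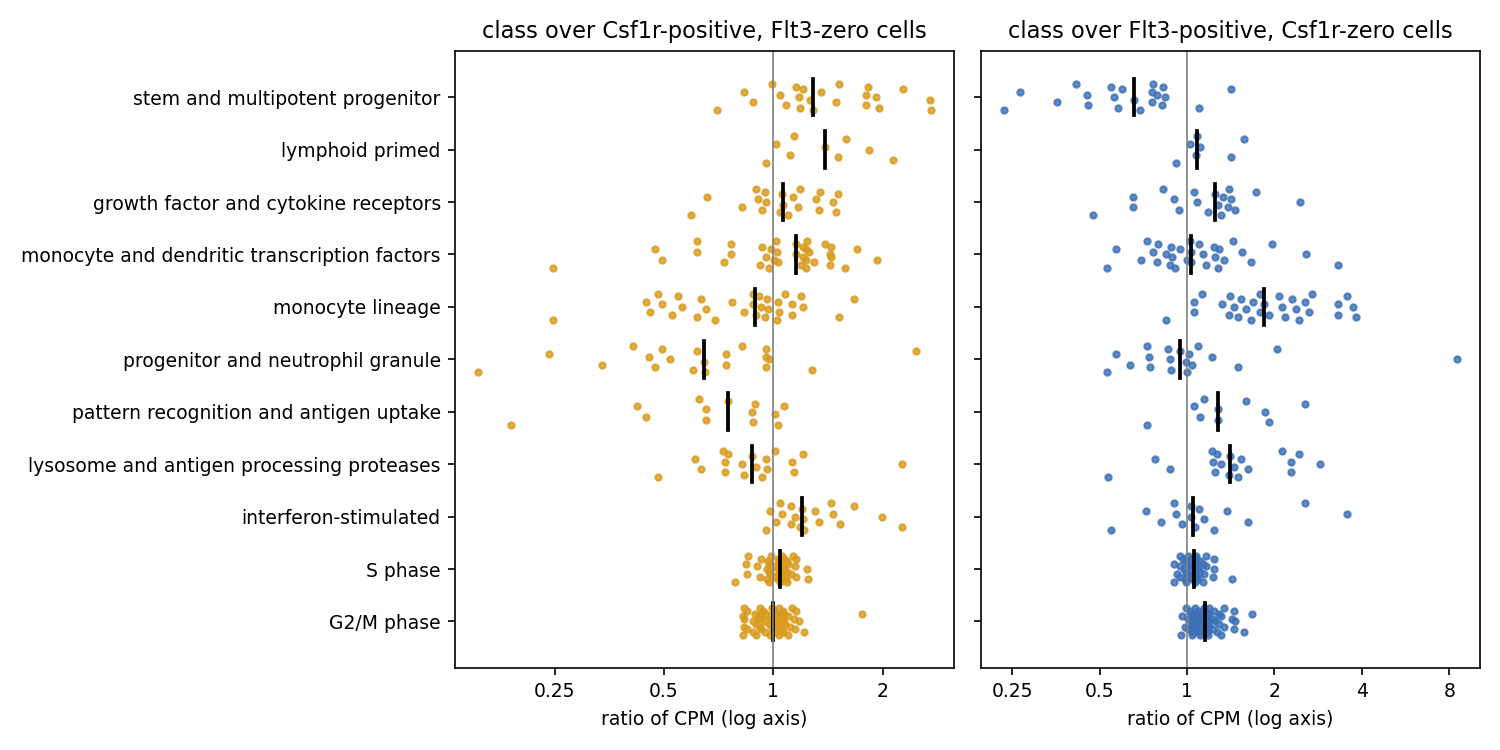
Ratio of CPM (log axis) of Flt3+Csf1r+ cells over Csf1r-positive Flt3-zero cells (left) and over Flt3-positive Csf1r-zero cells (right), with 1 point for each gene of 11 lists that had at least 50 UMIs in both groups together and a black bar at the median. The stem and multipotent list has its median at 1.28 on the left and 0.66 on the right, the monocyte list at 0.89 and 1.83.

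Most genes that set the single-receptor groups apart had a level in between in Flt3+Csf1r+ cells. For this count, both ends were limited to cells with Irf8 and without the 5 excluded genes, so that the 838 matched cells stood for the Csf1r-positive end. Of 5781 genes at 20 CPM or more in either end, 107 were at least 2-fold higher in the Flt3-positive end (1.85%) and 75 in the Csf1r-positive end (1.30%). The Flt3+Csf1r+ cells lay between the ends for 105 of the 107 and for 66 of the 75 genes. Choosing genes by the values of the ends favours such an order, and the thinned cells above show that a cell can pass from one group to another with depth.

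A few genes were above or below both ends in the cells with both receptors. Of 5884 genes at 20 CPM or more in any of the groups, 10 were at least 1.5-fold above both ends (0.170%) and 10 at least 1.5-fold below both (0.170%), with intervals off 1. Besides Cx3cr1, the higher ones were Ppfia4 at 32.7 CPM (against 11.4 CPM and 17.9 CPM), Gpr183 at 26.1 CPM (against 7.92 CPM and 15.8 CPM), Tmem229b at 59.6 CPM (against 37.0 CPM and 36.1 CPM), Dpysl2 at 25.7 CPM, the semaphorin receptor gene Plxnb2 at 28.6 CPM, Osbpl3 at 20.2 CPM, Cyb561a3 at 20.7 CPM and the basophil genes Mcpt8 and Prss34 described above. The lower ones included the proteoglycan gene Srgn at 714 CPM (against 1121 CPM and 1075 CPM), Nkg7 at 159 CPM (against 300.1 CPM and 249.9 CPM), Rgcc at 56.2 CPM (against 106 CPM and 115 CPM), Ldhb, Ccdc125 and the granulocyte factor Cebpe at 13.5 CPM (against 23.8 CPM and 20.7 CPM), beside Pf4 and 3 haemoglobin genes. These genes were picked after their values were seen.

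The neighbours that the rule set aside were chosen by a UMI of a dendritic or lymphoid gene, so their higher levels of such genes follow from the rule and are given as a description. Of 9756 genes tested against them, 225 were at least 2-fold lower (2.31%) and 46 at least 2-fold higher (0.472%) in Flt3+Csf1r+ cells. At 1.5-fold these were 747 (7.66%) and 245 (2.51%). Dendritic genes were lower in Flt3+Csf1r+ cells: 11 of 20 conventional and 9 of 14 plasmacytoid dendritic genes were at least 2-fold below the cells set aside. The difference in sums rested in part on a tail of cells: the conventional dendritic list had a median of 7.5 UMIs per thinned cell set aside, with a highest value of 235, and a median of 5 in Flt3+Csf1r+ cells. Cd74 stood at 3.44 CPM against 333 CPM and H2-Eb1 at 0.891 CPM against 90.4 CPM, genes whose RNA goes with that of H2-Aa, which the rule required to be 0. Xcr1, Batf3, Cadm1 and Cd209a of the mature conventional dendritic cells had 0 UMIs in Flt3+Csf1r+ cells, while Clec9a, known from dendritic progenitors also, stood at 5.60 CPM against 2.61 CPM in Csf1r-positive Flt3-zero cells. Granule genes went the other way, with 8 of 19 at least 2-fold higher than in the cells set aside and Elane at 1836 CPM against 783 CPM.

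Levels within the Flt3+Csf1r+ cells differed with the balance of the receptors. In 91 cells Flt3 had more UMIs than Csf1r, in 147 cells fewer, and in 85 cells both had the same number, with median depths of 22542, 23680 and 24210 UMIs. Sox4 stood at 444 CPM (interval 416 to 473) where Flt3 led and at 195 CPM (interval 181 to 210) where Csf1r led. Cd34 went from 288 CPM to 176 CPM, Cd27 from 76.6 CPM to 37.0 CPM and Satb1 from 71.5 CPM to 37.8 CPM in the same order. Ly6c2 stood at 330 CPM (interval 306 to 355) where Flt3 led and at 986 CPM (interval 954 to 1019) where Csf1r led, Lyz2 at 179 CPM and 519 CPM, Klf4 at 26.5 CPM and 100.6 CPM, and Lgals3 at 25.5 CPM and 151 CPM. Irf8 was close to equal in these outer groups, at 692 CPM and 722 CPM, and so was Il6st, at 85.9 CPM and 88.0 CPM. Both genes were lower in the 85 cells with equal receptor UMIs: 495 CPM for Irf8 and 51.5 CPM for Il6st. Their intervals there lay below those of both outer groups. Elane peaked in the same 85 cells: 3058 CPM, against 969 CPM where Flt3 led and 1659 CPM where Csf1r led. Not every gene thus ran in 1 direction from Flt3-led to Csf1r-led cells. The intervals of the outer groups did not overlap for Sox4, Cd34, Cd27, Satb1, Bcl2, Klf4, Lgals3, S100a4, Ly6c2, Lyz2 and Cebpb, and overlapped for Cx3cr1 and Il6st.

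**Figure D4:**
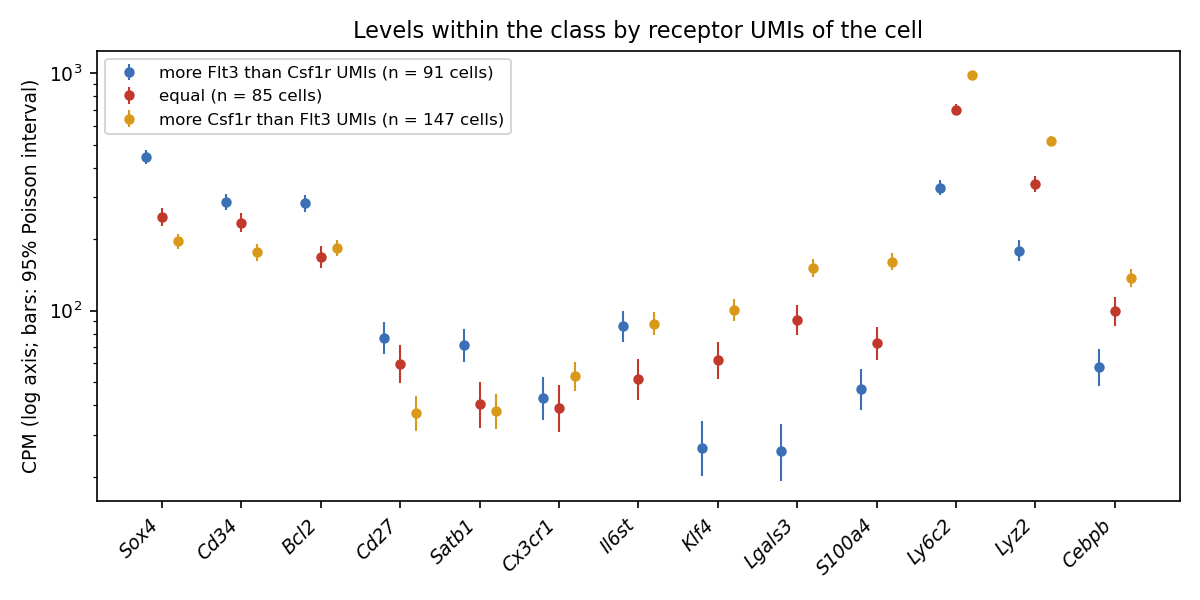
Levels of 13 genes in CPM (log axis, bars give 95% Poisson intervals) within the Flt3+Csf1r+ cells, split by whether the cell had more Flt3 UMIs (91 cells), equal UMIs (85 cells) or more Csf1r UMIs (147 cells). Sox4 and Cd34 are highest where Flt3 led, and Ly6c2, Lyz2, Klf4 and Lgals3 are highest where Csf1r led.

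Elane was highest where the receptor call rested on the fewest molecules. In the 63 cells with 1 UMI of each receptor it stood at 3482 CPM (interval 3389 to 3577), and in the 82 cells with at least 2 UMIs of each at 1001 CPM (interval 958 to 1045), at median depths of 24375 and 23769 UMIs. Irf8 moved the other way, from 462 CPM to 743 CPM, Il6st from 41.3 CPM to 91.4 CPM and Cx3cr1 from 33.4 CPM (interval 24.9 to 44.0) to 57.3 CPM (interval 47.5 to 68.7). Cells with a Cx3cr1 UMI, 184 of the 323, had Elane at 1400 CPM and Irf8 at 749 CPM, against 2420 CPM and 528 CPM in the 139 cells without. Depth moved with some of these values: the 108 shallowest cells had Ly6c2 at 945 CPM and G2/M genes at 5024 CPM, and the 108 deepest had 550 CPM and 8604 CPM.

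Cell by cell, the lists were spread widely. In cells thinned to 5000 UMIs, the stem and multipotent list had a median of 9 UMIs in Flt3+Csf1r+ cells (quartiles 6 and 12), between 6 in Csf1r-positive Flt3-zero and 11 in Flt3-positive Csf1r-zero cells. The monocyte list had medians of 53, 62 and 36 UMIs in the same order of groups, and the granule list 64.5, 98 and 69 UMIs. The stem list had a median of 4 UMIs in the erythroid cells and was at 0 in 1.86% of them. A few UMIs of it thus do not set a cell apart from the erythroid cells, whose own expression of these genes was not tested. Across the 322 thinned cells, the stem and monocyte sums were inversely related (Pearson's r -0.44, Spearman's rho -0.50), the monocyte and conventional dendritic sums went together (r 0.50, rho 0.45), and the stem and granule sums were nearly unrelated (r -0.10, rho -0.05). These are descriptions over cells of 1 library at a fixed total, where more of one list leaves less for another.

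**Figure D5:**
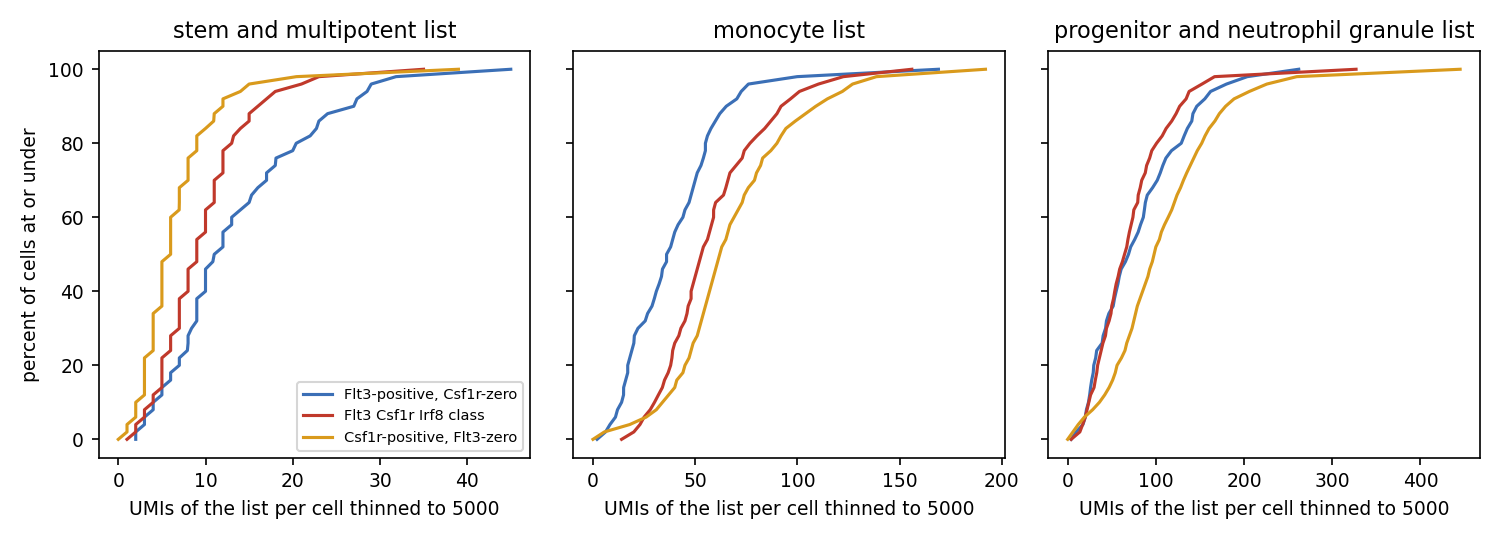
Percent of cells (vertical axis) at or under a number of UMIs of a gene list (horizontal axis) after thinning each cell to 5000 UMIs, for Flt3+Csf1r+ cells and the 2 single-receptor groups. By their medians, 9 and 53 UMIs, Flt3+Csf1r+ cells lie between the others for the stem and monocyte lists. For the granule list they lie near the Flt3-positive Csf1r-zero cells. In the monocyte list they lie above both groups at the lowest percentiles and below both at the highest value.

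Cell cycle genes were compared as lists. The summed S phase list stood at 4268 CPM (interval 4223 to 4314) in Flt3+Csf1r+ cells, 4178 CPM in Csf1r-positive Flt3-zero and 4055 CPM in Flt3-positive Csf1r-zero cells. The G2/M list stood at 6871 CPM, 7389 CPM and 6048 CPM in the same order, and at 9065 CPM in the cells with an excluded gene. Of its 54 genes, 50 were above a ratio of 1 against Flt3-positive Csf1r-zero cells (summed ratio 1.14), and all were below 1 against the cells with an excluded gene, 18 of them at least 1.5-fold (summed ratio 0.758). None of the 42 S phase genes was 1.5-fold apart from the Csf1r-positive Flt3-zero cells, and 1 of the 54 G2/M genes was. Among all 10780 genes of that contrast, 539 were 1.5-fold higher and 379 lower.

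Brd9, the targeted gene of the study, is intact in this genotype. It encodes a bromodomain subunit of the non-canonical BAF chromatin remodelling complex. Brd9 stood at 30.9 CPM (interval 27.2 to 35.1) in Flt3+Csf1r+ cells, 36.3 CPM (interval 34.0 to 38.6) in Csf1r-positive Flt3-zero cells and 32.3 CPM (interval 26.5 to 38.9) in Flt3-positive Csf1r-zero cells. None of the 13 listed genes of the complex was 1.5-fold apart from either group. Over all genes tested, 539 of 10780 were 1.5-fold higher and 379 lower against Csf1r-positive Flt3-zero cells. Against Flt3-positive Csf1r-zero cells, these were 411 and 373 of 9289. Such genes were thus few in general, and a list of 13 without any is not set apart by this count.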

How the data were processed

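Gene counts of 1 library of lineage-negative c-Kit+ marrow cells were used as deposited. Per the labels and the methods of the study, the authors made these UMI counts from 10x 3' libraries with Cell Ranger 6.0.2 on mm10. The matrix held 8817 barcodes, 32285 genes and 167452386 UMIs. The cell filter of the study (UMIs between 1000 and 50000, genes between 1000 and 6500, and a mitochondrial share below 7%) left 7645 cells. The labels describe the extraction of bulk RNA for this sample, which the files are not.

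UMIs were summed over the cells of a group and given as CPM. Intervals are exact 95% Poisson, Clopper-Pearson or, for ratios, conditional binomial intervals. Cells are not replicates, so no test was made. Genes needed 50 UMIs in both groups together. Thinning drew 5000 UMIs per cell without replacement, and Scrublet, run through scanpy 1.11.5 at an expected rate of 6%, marked doublets, which were kept. The ratio step was tested on simulated Poisson counts, without the spread between cells that some genes here showed. Of 50 genes simulated at 2-fold between the class and the Csf1r-positive Flt3-zero cells, 46% passed 2-fold. Of 50 genes at 3-fold all passed, among 10791 genes run.

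Named genes were members of 20 lists and, at 20 CPM or more in the higher group with an interval off 1, the 15 highest and 15 lowest ratios against Csf1r-positive Flt3-zero cells and the 10 of each against Flt3-positive Csf1r-zero cells, without the 8 rule genes and unnamed gene models. The class, its members and the lists were chosen with earlier results of these data known. Of 443 listed genes, 2 were not found by symbol. Of 465 genes described, 89 overlap another gene on the same strand, and their counts are uncertain. Python packages were numpy 2.4.6, scipy 1.17.1 and pandas 2.3.3.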

Additional observations from a re-analysis of the deposited data

Results flagged for a closer look

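Barcodes that the cell filter left out also met the gene rule. Of 1172 such barcodes, 11 had Flt3, Csf1r and Irf8 with the 5 excluded genes at 0 (0.939%, exact interval 0.469 to 1.67), above the 3 that a count of 0 allows. They drew attention because the report does not use them. Of the 11, 7 were over the limit on UMIs or genes and 4 were over the limit on the mitochondrial share, with a median of 45621 UMIs.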

How the results depend on the processing

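The class itself moved with the rule and with depth. Requiring 2 UMIs of each receptor left 82 cells (1.07%), and thinning every cell to 5000 UMIs before the rule left 66 (0.875%). Against Csf1r-positive Flt3-zero cells, the genes at least 2-fold higher and lower (119 and 153) became 256 and 338 with 2 UMIs of each receptor, with a Cx3cr1 ratio of 2.01. They became 191 and 72 with the matched contrast, 21 and 70 with at least 200 UMIs, and 1486 and 2782 with at least 1 UMI. Levels from thinned cells gave 73 higher, and thinning before the rule gave 290 lower, when 8 of the 119 and 26 of the 153 genes were shared. Alternatives chosen after seeing the data gave 63 and 230 without the 3 highest cells of each gene, and 539 and 379 at 1.5-fold. Against Flt3-positive Csf1r-zero cells (116 and 81), thinning before the rule gave 3 and 16 with Cx3cr1 at 1.91, and, among the added alternatives, leaving out the 3 highest cells gave 176 and 46 with Cx3cr1 at 4.50, the mean over cells 129 lower, and 1.5-fold 411 and 373.

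Single ratios that crossed 1 were these, against Csf1r-positive Flt3-zero cells. Prss34 was at 0.360 without doublet calls, 0.253 with thinning before the rule, 0.625 as a mean over cells, 0.660 from thinned cells, 0.979 without basophil cells and 0.743 without the 3 highest cells. The basophil list was at 0.601, 0.619, 0.825, 0.854, 0.864 and 0.815 in the same order, and Mcpt8 at 0.816 and 0.844 under the first and second. Thinning before the rule also gave Nrp1 at 0.409 and Igkc at 1.37. The BAF list was at 1.0022 with 2 UMIs of each receptor, 1.0062 with H2-Aa allowed and 1.03 with the matched contrast, where Igkc was at 1.0075. The S phase list was at 0.999 from thinned cells and 0.995 without the 3 highest cells, where the transcription factor list was at 0.992. Against Flt3-positive Csf1r-zero cells, 2 UMIs of each receptor gave Mpo at 1.0004, Hba-a1 at 1.16, Hbb-bs at 2.48, Dstn at 1.05, the erythroid list at 1.22 and the megakaryocyte list at 1.0988. Thinning before the rule gave Ifitm1 at 1.42, Ccl4 at 1.11, Mpo at 1.0134, Nrp1 at 0.353, Dstn at 1.18, the lymphoid list at 0.922, the plasmacytoid dendritic list at 0.971 and the G2/M list at 0.884. Without basophil cells, Prss34 was at 0.658, Mcpt8 at 0.491 and the basophil list at 0.462, and that list was at 0.957 without doublet calls and 0.883 without the 3 highest cells. Hbb-bs was at 1.04 without erythroid cells and 1.03 without the 3 highest cells. The causes were not tested. Of 1157 values under alternatives, 748 kept their main reading, 365 moved and 44 crossed 1. No paired analysis was possible because there is 1 library and the result comes from no test, and no replicate could be left out.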

Other observations

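Genes of immune sensing were set beside the Csf1r-positive Flt3-zero cells in Flt3+Csf1r+ cells. Over all 10780 genes tested in this contrast, 119 were at least 2-fold higher and 153 at least 2-fold lower. Those past 1.5-fold numbered 539 and 379, and the median ratio was 1.04. Of 20 of 30 interferon-stimulated genes with enough UMIs, 1 was at least 2-fold and 4 at least 1.5-fold higher, none was 1.5-fold lower, and the median ratio was 1.20. Of 13 of 25 genes of pattern recognition and antigen uptake, 3 were at least 2-fold and 6 at least 1.5-fold lower, with a median of 0.75. Lysosomal genes had a median of 0.87, with 3 of 19 at least 1.5-fold lower. Chemokine receptor and homing genes summed to 1484 CPM against 1347 CPM.

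Dendritic lists were summed in the same way. Conventional dendritic genes summed to 1055 CPM against 1072 CPM (ratio 0.985, interval 0.961 to 1.01) and plasmacytoid dendritic genes to 633 CPM against 536 CPM (ratio 1.18, interval 1.14 to 1.22). Against the 838 cells matched on Irf8 and the excluded genes, the ratios were 1.08 (interval 1.05 to 1.10) and 1.26 (interval 1.22 to 1.31). The eosinophil list summed to 5.47 CPM against 27.1 CPM and the basophil and mast cell list to 319 CPM against 215 CPM, both carried by few cells.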
